A study of Rattus norvegicus with 12 samples.

Results

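The genes described here encode the proteins of the cytosolic ribosome. They were chosen by symbol, as the rows of the deposited table whose names have the form of the ribosomal protein genes of the large subunit (Rpl, Rplp) or the small subunit (Rps, Rpsa), and 80 of the 13151 genes in the table matched, 47 of the large and 33 of the small subunit. Kinases of the S6 kinase family, mitochondrial ribosomal proteins and ribosomal RNA genes do not match that form. The samples were renal cortex RNA of 12 male rats aged 32 weeks, 4 in each of 3 groups. ZL rats were Zucker lean controls without treatment. ZF rats were Zucker fatty rats, a genetic model of obesity that lacks a functional leptin receptor in all its cells (the series text calls it leptin-deficient), also without treatment. ZF-SGLT2i rats were Zucker fatty rats given canagliflozin, an inhibitor of the glucose transporter SGLT2, mixed into the food at 10 mg/kg/day for 8 weeks from the age of 24 weeks, with a food intake matched to that of ZF rats. The methods describe ZL rats in a single cohort, in which ZL and ZF rats both had open kidney biopsies before the end of the experiment, and describe none for the cohort of the ZF-SGLT2i rats and their untreated ZF controls. The study calls the sequenced ZF rats by the name of those untreated controls, so in comparisons with ZL rats, biopsy and cohort cannot be told apart from the groups.

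A ribosome is built from a large and a small subunit, each a core of ribosomal RNA with a set of proteins that are needed in equal numbers. The mRNAs of nearly all these proteins begin with a C and a run of pyrimidines, the 5′ terminal oligopyrimidine or TOP motif, through which mTORC1 and the RNA-binding protein LARP1 set how well they are translated and how long they last. Growth of a kidney cell, as in hypertrophy after nephron loss or in obesity, needs new ribosomes, but TOP mRNAs are regulated largely at translation, which mRNA levels do not show.

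The TOP motif was looked for at the starts of these genes because it is the sequence feature the family is known to share. RefSeq promoter windows of the assembly GRCr8, from 250 bases before to 50 bases after the annotated start, were at hand for 65 of the 80 genes. A C at the annotated start or within 5 bases on either side of it, followed by at least 4 bases that were each C or T, was counted as a TOP start, on the strand of the gene only. It was present in 41 of the 65 genes (63.1%), in 24 of 39 large-subunit genes (61.5%) and in 17 of 26 small-subunit genes (65.4%). Among the 8767 other tested genes with a window, 17.7% had such a start. In 24 of the 41 genes the C was the annotated start itself. Of the 9 named genes of that kind, 7 are given below as examples of short and long tracts. Each line gives 10 bases before and 20 from the annotated start, with the tract in capitals.
Rplp0, chr12:46718371-46718400, minus strand: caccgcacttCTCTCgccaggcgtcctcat
Rpl10, chrX:157205840-157205869, plus strand: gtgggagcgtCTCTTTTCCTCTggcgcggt
Rpl22, chr5:168117951-168117980, plus strand: gcgcccccctCCCTTTCTgcctcctctgcc
Rpl35, chr3:43165902-43165931, minus strand: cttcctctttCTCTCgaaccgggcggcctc
Rpl37a, chr9:81748081-81748110, plus strand: cccgttgcgtCTCTTCCTCTTCgggcttgg
Rpl39, chrX:121195877-121195906, minus strand: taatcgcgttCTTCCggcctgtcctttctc
Rps27, chr2:177964587-177964616, minus strand: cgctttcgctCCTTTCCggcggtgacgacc
The tracts in these 7 windows run from 5 to 12 bases. The start of Rpl38, shown because its mRNA level differed most clearly between ZF and ZL rats, had no such tract within reach of its annotated start. A pyrimidine run opened by a C does end directly before that start, but its C lies more than 5 bases away and was not counted. A gene without a TOP start by this rule may thus still hold such a run nearby.
Rpl38, chr10:100200425-100200454, plus strand: ttctttttccgttgttcggtgctcgctcct

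Levels are given in CPM, reads of a gene relative to all reads on genes of the rat, as scaled by the authors with the TMM factors of edgeR. Between 8824980 and 12210257 reads per rat lay on genes. All 80 genes had a value of at least 1 CPM in at least 4 rats and were tested. Rps4y2 had the fewest reads, with a mean of 5.54 CPM and at least 35 reads in each rat, and each of the other genes had at least 179 reads in each rat. The spread between rats of a group was a median SD of 0.111 on the log2 scale for the ribosomal protein genes, and 0.105 for the 1930 other genes averaging 100 CPM or more. The renal cortex label was checked against cell type markers. The 4 inner medulla markers, led by Aqp4, summed to 72.4 to 173 CPM per rat and were highest in the ZF-SGLT2i rats. All 8 proximal tubule markers were present, with a summed level of 15422 to 22412 CPM per rat led by Lrp2, the endocytic receptor megalin, while the 3 lymphocyte markers in the table, led by Cd8a, summed to 0.604 to 3.83 CPM per rat. The other 3, Cd79a, Cd79b and Ms4a1, had no row, and a missing row is no measured absence.

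The genes moved together from rat to rat. In ZL rats 1, 2, 3 and 4, the number of the 80 genes above their own mean over all 12 rats was 73, 60, 16 and 77. In ZF rats 2, 3, 4 and 5 it was 57, 5, 65 and 3. In ZF-SGLT2i rats 2, 3, 4 and 6 it was 53, 39, 48 and 7. Thus each group held at least 1 rat in which most of the family was low and at least 1 in which most of it was high. Other sets of genes shifted between rats as well. The share above their mean ran over the rats from 28.7% to 66.9% for the 1930 other genes averaging 100 CPM or more, and from 10.1% in ZF rat 2 to 95.7% in ZL rat 1 for the 69 mitochondrial ribosomal protein genes. Over all other tested genes, where scaling keeps it near the middle, it was 46.9% to 53.1%. The heatmap of levels by rat shows these low and high rats as vertical bands that cross the border between large and small subunit.

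**Figure D1:**
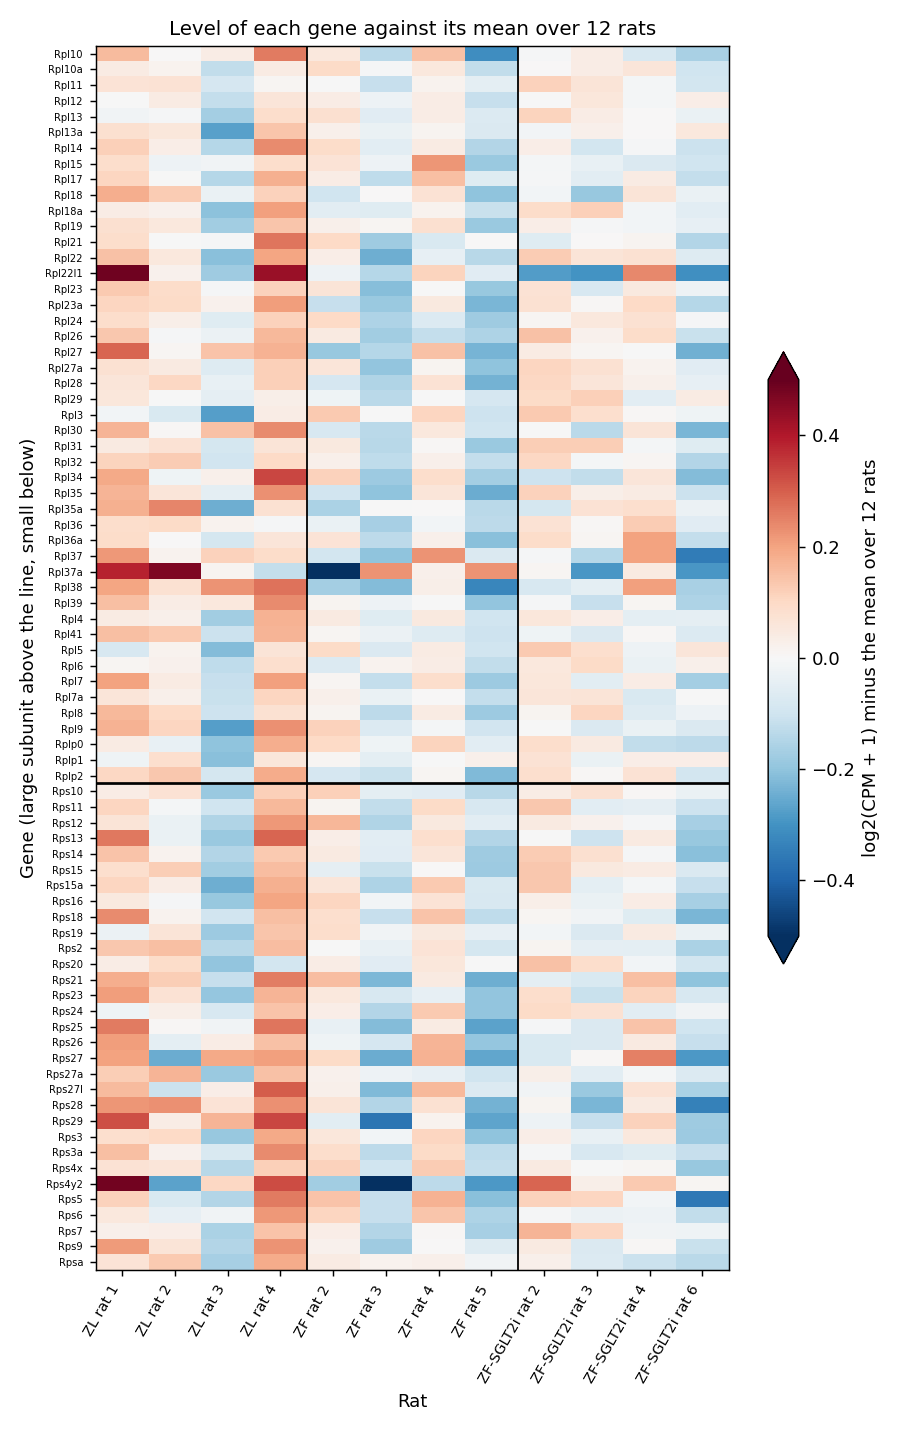
Level of 78 of the 80 ribosomal protein genes (rows, 47 of the large subunit above the line and 31 of the small below) in each of the 12 rats (columns), as log2(CPM + 1) minus the gene's mean over 12 rats, red above and blue below the mean, with colours ending at 0.5 in either direction. Pale blue columns at ZL rat 3, ZF rats 3 and 5 and ZF-SGLT2i rat 6 cover most genes of both subunits.

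Summed over the 80 genes, ribosomal protein mRNA made up 15975, 15398, 13763 and 16553 CPM in ZL rats 1 to 4. The sums in ZF rats 2 to 5 were 15244, 14032, 15471 and 13662 CPM. The sums in ZF-SGLT2i rats 2, 3, 4 and 6 were 15378, 14848, 14903 and 13912 CPM. The 3 groups overlapped in part, with 15422 ± 1202 CPM for ZL, 14602 ± 890 CPM for ZF and 14760 ± 613 CPM for ZF-SGLT2i rats (SD, n = 4). ZL rats 1 and 4 lay above every ZF and ZF-SGLT2i rat. The mean sum in ZF rats was 0.947 times that in ZL rats, and the mean in ZF-SGLT2i rats 1.01 times that in ZF rats. The order of the sums followed the depth of the libraries at its lower end. ZF rat 5, ZL rat 3, ZF-SGLT2i rat 6 and ZF rat 3 had the fewest reads on genes (8824980, 8886901, 8914666 and 9866752) and, in the same order, the lowest sums. ZL rats had 11120014 reads on average and ZF rats 9943187, so depth moved with the groups as well as within them. In bulk tissue, fewer cells of a type and less RNA per cell cannot be told apart.

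**Figure D2:**
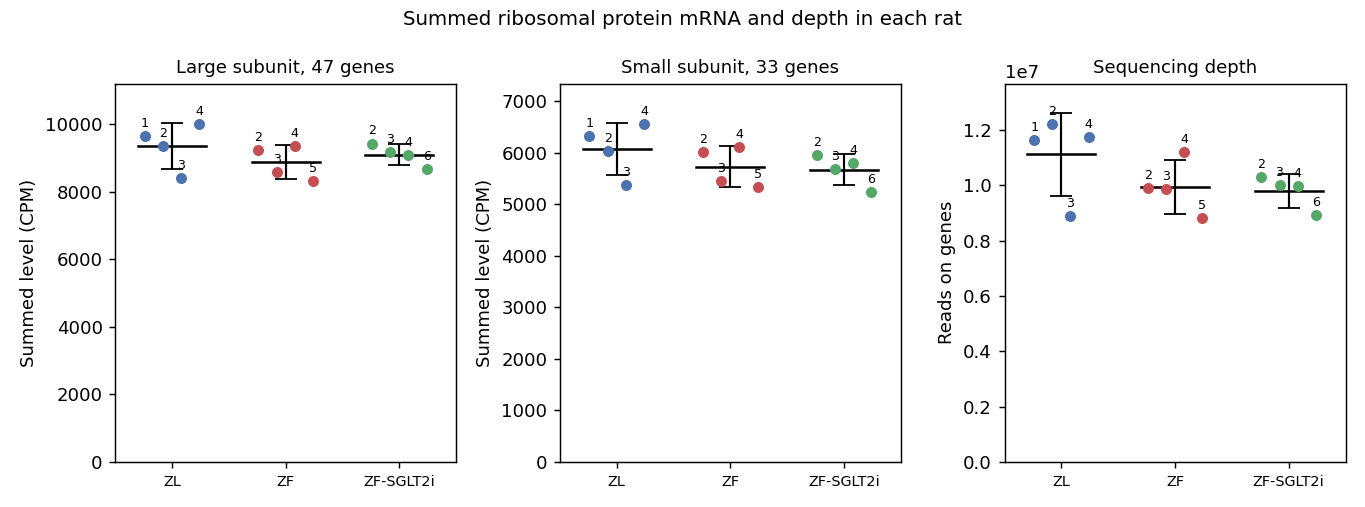
Summed level of the large-subunit (left) and small-subunit genes (middle) in CPM, and reads on genes (right), for each rat of the ZL, ZF and ZF-SGLT2i groups. Points are rats with their numbers, horizontal lines are group means and bars are SD over 4 rats. ZL rat 3, ZF rat 5 and ZF-SGLT2i rat 6 are the lowest of their group in all 3 panels.

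The balance of the subunits differed little between rats. The ratio of summed large-subunit to small-subunit level was 1.54 ± 0.019 for ZL rats, 1.55 ± 0.022 for ZF rats and 1.60 ± 0.038 for ZF-SGLT2i rats (SD, n = 4). It ran from 1.53 to 1.56 among ZL rats, from 1.53 to 1.58 among ZF rats and from 1.57 to 1.65 among ZF-SGLT2i rats, so every ZF-SGLT2i rat lay above every ZL rat, while the ranges of ZF and ZF-SGLT2i rats overlapped at one end. The mean ratio of ZF-SGLT2i rats was 1.04 times that of ZL rats and 1.03 times that of ZF rats (two-sided exact permutation p = 0.0286 and 0.0571, both 0.0857 after Benjamini-Hochberg adjustment over 3 comparisons), and ZF and ZL rats did not differ beyond their spread (exact permutation p = 0.486). Ribosomal RNA that was left after depletion, counted on Rn28s and Rn45s, was 7.25% to 12.0% of a ZL library, 8.82% to 12.0% of a ZF library and 11.5% to 15.2% of a ZF-SGLT2i library, and its part in the ratio was not tested. These shares measure what the depletion left behind and not the number of ribosomes in the tissue.

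Comparison of ZF with ZL rats asked whether obesity with its kidney disease changed the mRNA of the ribosomal proteins. With limma on log2(CPM + 1) and Benjamini-Hochberg adjustment over 11633 genes, 3 of the 80 genes fell and none rose, and edgeR and DESeq2 on the recovered reads called the same 3 genes. Of all tested genes, 18.8% passed this test and 10.6% passed it as lower, so the share of calls among the 80 genes, 3.75%, was below that background in this fit. The 2 large-subunit genes were Rpl38 and Rpl23a and the small-subunit gene was Rps29. An unadjusted p under 0.05 was reached by 11 of 47 large-subunit and 4 of 33 small-subunit genes, against 33.1% of all genes. A log2 fold change below 0 was found in 41 of 47 large-subunit genes and in 30 of 33 small-subunit genes, against 51.6% of all tested genes. The medians of the log2 fold change were −0.12 in the large and −0.08 in the small subunit, against −0.008 for all genes. Of the 1930 other genes averaging 100 CPM or more, 63.5% had a log2 fold change below 0, with a median of −0.062. The genes move together from rat to rat, so their shared direction is not many separate observations. For 77 of the 80 genes the 95% confidence interval of the fold change stayed within 1.5-fold in either direction. No member differed more than 2-fold, as 1.74% of all genes did.

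Some of these values changed with the setting. With median-ratio scaling 41 of 47 and 30 of 33 genes were lower (medians −0.11 and −0.07), and with Rn28s and Rn45s left out before scaling 39 and 30 (−0.11 and −0.07). The replicate block gave 34 and 21 lower genes (−0.068 and −0.023). In that setting ZL rat 1, ZF rat 5 and ZF-SGLT2i rat 6 share their number with no other rat. Their block terms take up their values, so these rats add nothing to any of the comparisons there. Without ZL rat 4 the lower genes were 36 and 24 (−0.093 and −0.037), and without ZL rat 3 they were 46 and 33 (−0.156 and −0.135). Under quantile normalization 21 of 47 large-subunit and 20 of 33 small-subunit genes were higher in ZF rats, with medians of −0.018 and 0.021, and the share of higher genes among all calls went from 43.6% to 54.0%. With the reads on genes of each rat as a term of the fit, a setting added after the data had been seen, 19 of 47 and 20 of 33 genes were higher and the medians were −0.04 and 0.011. Without ZL rat 3, the low rat of that group, 6 large-subunit and 5 small-subunit genes passed as lower, and without ZF rat 4, the high rat of its group, 7 and 2. The 11 of 80 genes without ZL rat 3 were 13.8%, above the 8.98% of all tested genes that passed as lower in that setting, and the 9 without ZF rat 4 were 11.2%, beside 12.0%. With array quality weights the shares were 16.2% and 13.8%, so whether the family lay below the background rested on the setting.

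Rpl38, a large-subunit protein known for its part in the translation of Hox mRNAs, had levels of 107, 98.7, 109 and 113 CPM in ZL rats 1 to 4. In ZF rats 2 to 5 they were 82.8, 80.3, 95.4 and 74.3 CPM. In ZF-SGLT2i rats 2, 3, 4 and 6 they were 88.3, 90.2, 108 and 83.4 CPM. Every ZF rat lay below every ZL rat, and the ZF-SGLT2i rats reached into both ranges. The log2 fold change in ZF against ZL rats was −0.36 ± 0.087 (SE), with an adjusted p of 0.0121 by limma and p = 0.0286 by a two-sided exact permutation test, the smallest p that 4 rats against 4 allow. Rpl38 passed under all 25 alternatives, with adjusted p-values from 0.00373 to 0.0389 over the limma, edgeR and DESeq2 fits.

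Rps29, a small zinc-binding protein of the small subunit, had levels of 248, 203, 223 and 250 CPM in ZL rats. In ZF rats they were 191, 154, 201 and 165 CPM. In ZF-SGLT2i rats they were 195, 183, 215 and 175 CPM. Again no ZF rat reached the lowest ZL rat, although ZF rat 4 came within a few CPM of ZL rat 2. The log2 fold change was −0.38 ± 0.095 (SE; limma adjusted p = 0.0145; two-sided exact permutation p = 0.0286), and the call held in 24 of 25 alternatives, with adjusted p-values from 0.00425 to 0.0634. Rpl23a, which sits at the exit of the peptide tunnel, was named after its values were seen because it is the remaining call. Its levels were 175 ± 9.61 CPM in ZL and 149 ± 13.0 CPM in ZF rats (SD, n = 4), with the highest ZF rat above the lowest ZL rat. The log2 fold change was −0.23 ± 0.072 (SE; limma adjusted p = 0.0412), and it passed in 10 of 25 alternatives, with adjusted p-values from 0.0115 to 0.15.

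Separation of the groups gave much the same picture. In 4 of the 80 genes all ZF rats were below all ZL rats, and in none above, while 19.0% of all tested genes separated in one direction or the other. Beside Rpl38 and Rps29 these were Rpl39, a short protein of the exit tunnel, and Rpl36. Rpl39 had 49.7 ± 3.30 CPM in ZL and 44.0 ± 2.96 CPM in ZF rats (SD, n = 4), with a log2 fold change of −0.17 ± 0.069 (SE; limma adjusted p = 0.1). Rpl36, named after its values were seen, had 74.4 ± 2.62 and 67.8 ± 3.56 CPM and a log2 fold change of −0.13 ± 0.058 (SE; limma adjusted p = 0.125). Neither passed the test.

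The other genes at the lower end were Rps4y2 (log2 fold change −0.44 ± 0.15), a relative of the X-linked Rps4x, then Rpl27 (−0.26 ± 0.090) and Rps25 (−0.25 ± 0.089; all SE), with limma adjusted p-values of 0.0628, 0.061 and 0.0676. At the upper end stood Rpl3, a protein close to the peptidyl transferase centre, with 324 ± 29.7 CPM in ZL and 350 ± 25.9 CPM in ZF rats (SD, n = 4) and a log2 fold change of 0.12 ± 0.076 (SE; limma adjusted p = 0.314). Rps20, Rpl5, Rplp0 and Rpl13 followed with 0.05, 0.04, 0.04 and 0.03. None of these 5 differed by more than the spread between rats, although Rpl3 passed as higher with quantile normalization (limma adjusted p = 0.0284) and with depth as a term (limma adjusted p = 0.0352).

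Among genes with a known regulatory or structural role, Rps6, the small-subunit protein that S6 kinase phosphorylates downstream of mTORC1, had 239, 223, 227 and 267 CPM in ZL rats. Its levels were 247, 212, 253 and 206 CPM in ZF rats. They were 229, 225, 226 and 211 CPM in ZF-SGLT2i rats. The 3 ranges overlapped, with a log2 fold change of −0.06 ± 0.077 in ZF against ZL rats (SE; limma adjusted p = 0.642). These are mRNA levels and say nothing of the phosphorylation of the protein. The acidic stalk, which recruits the translation factors, is made of Rplp0, Rplp1 and Rplp2. Rplp0, often used as a reference gene, had 613 ± 67.7 CPM in ZL, 628 ± 36.1 CPM in ZF and 601 ± 46.7 CPM for ZF-SGLT2i rats (SD, n = 4). Rplp1 differed by a log2 fold change of 0.02 between ZF and ZL rats and Rplp2 by −0.18, with limma adjusted p-values of 0.882 and 0.0821. Rpl5 and Rpl11, which bind 5S rRNA and can hold back the p53 ligase Mdm2 when assembly fails, had log2 fold changes of 0.04 ± 0.070 and −0.05 ± 0.059 (SE; limma adjusted p = 0.702 and 0.58).

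The genes whose loss causes Diamond-Blackfan anaemia or marks 5q deletion, Rps19 and Rps14, were at 148 ± 13.9 and 154 ± 14.0 CPM in ZL rats and at 150 ± 6.10 and 147 ± 11.0 CPM in ZF rats (SD, n = 4; limma adjusted p = 0.858 and 0.625). Rpsa, also known as the laminin receptor precursor, differed by −0.04 (limma adjusted p = 0.763). Of the paralogs looked for, Rpl22l1 and Rps27l were in the table. Rpl22l1, the relative of Rpl22, had 29.1 ± 6.53 CPM in ZL, 24.5 ± 1.90 CPM in ZF and 22.5 ± 4.72 CPM for ZF-SGLT2i rats. Rps27l, the p53-responsive relative of Rps27, had 25.9 ± 3.26, 23.7 ± 2.76 and 22.8 ± 2.00 CPM (SD, n = 4 each). Neither passed in any of the 3 comparisons in the main fit. In ZF-SGLT2i against ZL rats, Rpl22l1 passed as lower in 3 of 25 alternatives. These were array quality weights, ZL rat 3 left out and ZF-SGLT2i rat 4 left out. Rpl3l, Rpl10l, Rpl39l and Rpl7l1 have no row in the table.

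Ribosomal protein genes have many processed copies in the rat genome, and reads of near-identical copies cannot be separated in counts per gene. Rpl37a may be such a case. It had 54.1, 57.2, 41.5 and 37.8 CPM in ZL rats and 25.2, 48.2, 42.0 and 48.2 CPM in ZF rats. The row Rpl37a-ps1 had a mean of 135 CPM. ZF rats 3 and 5, in which most of the family was low, had the highest Rpl37a of their group. Whether Rpl37a shared reads with Rpl37a-ps1 was not tested, and its level is uncertain. Reads may also be split between Rps4x and Rps4y2, and between Rpl36a and Rpl36al.

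Comparison of ZF-SGLT2i with ZF rats asked whether the drug changed these mRNAs in obese rats. None of the 80 genes passed by limma, and none passed by edgeR or DESeq2 on the recovered reads. Of all tested genes, 3.15% passed by limma. An unadjusted p under 0.05 was found for 1 of the 80 genes, against 17.2% of all tested genes. A log2 fold change below 0 was found in 13 of 47 large-subunit and 18 of 33 small-subunit genes, against 48.3% of all genes. The medians were 0.04 and −0.020, against 0.006 for all genes. The small-subunit direction rested on single rats and settings, with 22 of 33 genes higher without ZF rat 4, 21 without ZF-SGLT2i rat 6, 19 without ZF rat 2 or with the ribosomal RNA percent as a term, and 10 without ZF rat 5. For 79 of the 80 genes the 95% confidence interval stayed within 1.5-fold, which bounds a difference without showing that the groups were alike.

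The gene with the unadjusted p was Rps4y2. It had 4.70, 3.51, 4.87 and 4.26 CPM in ZF rats and 6.86, 5.55, 6.04 and 5.46 CPM in ZF-SGLT2i rats, and 7.99, 4.33, 5.90 and 7.06 CPM in ZL rats. All ZF-SGLT2i rats were above all ZF rats, and ZL rats spanned both ranges. The log2 fold change was 0.39 ± 0.15 (SE), with a limma adjusted p of 0.202 and p = 0.0286 by a two-sided exact permutation test. It was the only one of the 80 genes in which these groups did not overlap, against 11.2% of all tested genes. The next at the upper end were Rpl22, Rpl38, Rpl35 and Rpl26 with log2 fold changes of 0.15, 0.15, 0.14 and 0.14, and limma adjusted p-values from 0.351 to 0.414. Toward the lower end were Rpl22l1 (−0.13), Rpsa (−0.09) and Rpl37a (−0.08), with limma adjusted p-values from 0.583 to 0.874. In Rpl38 and Rps29, the genes lower in ZF rats, the log2 fold change with the drug was 0.15 ± 0.087 and 0.12 ± 0.095 (SE), within the spread between rats (limma adjusted p = 0.412 and 0.586). Both comparisons share the ZF rats.

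**Figure D3:**
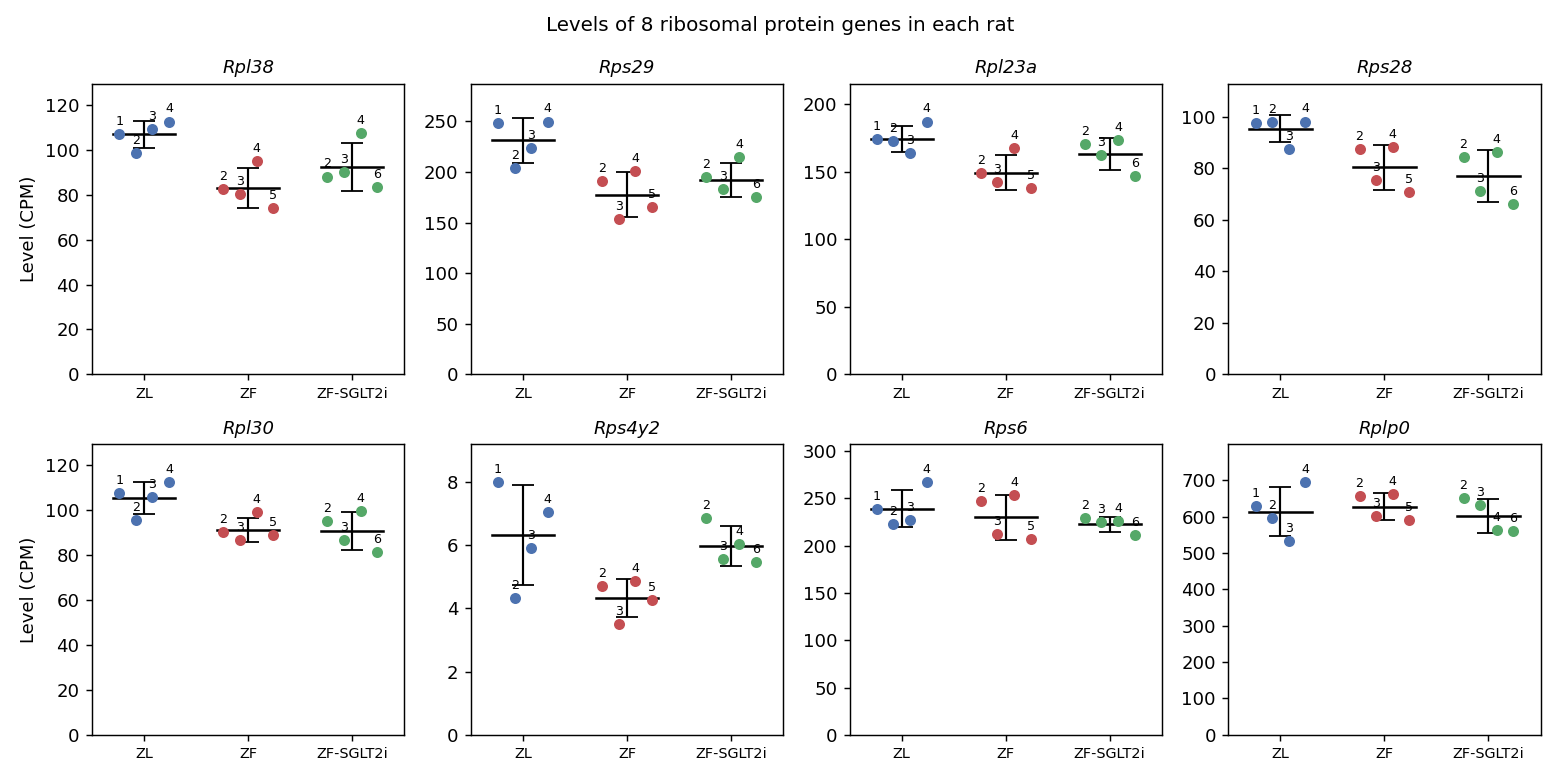
Level in CPM of 8 ribosomal protein genes in each ZL, ZF and ZF-SGLT2i rat (points with rat numbers), with group means (horizontal lines) and SD over 4 rats (bars). Rpl38 and Rps29 of ZF rats lie below all ZL rats, Rps4y2 of ZF-SGLT2i rats lies above all ZF rats, and the groups overlap in Rps6 and Rplp0.

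Comparison of ZF-SGLT2i with ZL rats gave 2 genes lower of the 80 and none higher, the same 2 with edgeR and 1 more, Rps29, with DESeq2, while 27.4% of all tested genes passed by limma and 15.0% passed as lower. A log2 fold change below 0 was found in 33 of 47 large-subunit and 29 of 33 small-subunit genes, against 50.0% of all genes, with medians of −0.05 and −0.09. Of the 1930 other genes averaging 100 CPM or more, 60.1% had one below 0, with a median of −0.066. With median-ratio scaling 33 and 29 genes were lower, and with Rn28s and Rn45s left out before scaling 29 and 28. The replicate block gave 25 and 19 lower genes, with medians of −0.0021 and −0.022. The medians were −0.016 and −0.069 without ZL rat 1, and −0.104 and −0.148 without ZL rat 3. Under quantile normalization 15 of 47 and 16 of 33 genes were lower, with medians of 0.03 and 0.0090, and with the reads on genes as a term 16 of 47 and 17 of 33, with medians of 0.04 and −0.0078. Rps28, a small-subunit protein near the mRNA exit channel, had 97.5, 98.2, 87.7 and 98.3 CPM in ZL rats, 87.6, 75.5, 88.3 and 70.8 CPM in ZF rats and 84.6, 71.3, 86.4 and 66.0 CPM in ZF-SGLT2i rats. Every ZF-SGLT2i rat was below every ZL rat, and the log2 fold change was −0.31 ± 0.094 (SE; limma adjusted p = 0.0255). Rpl30, a large-subunit protein, had 105 ± 7.04 CPM in ZL and 90.7 ± 8.30 CPM in ZF-SGLT2i rats (SD, n = 4), with a log2 fold change of −0.21 ± 0.073 (SE; limma adjusted p = 0.0425). Both were named after their values were seen, and passed in 17 and 12 of 25 alternatives, with adjusted p-values from 0.00956 to 0.371 and from 0.0196 to 0.666. Neither passed with the ribosomal RNA percent or the reads on genes as a term. Without ZL rat 3, 3 large-subunit and 5 small-subunit genes passed as lower. They were 10% of the 80 genes, below the 14.2% of all tested genes that passed as lower in that setting. No member passed without ZL rat 1, ZL rat 4, ZF-SGLT2i rat 3 or ZF-SGLT2i rat 6. The groups did not overlap in 2 of the 80 genes, Rps28 and Rpl39, against 28.0% of all tested genes. The pair of ZL comparisons shares the ZL rats. The genes called differed between them, with Rpl38 at −0.21 and Rps29 at −0.27 in ZF-SGLT2i against ZL rats (limma adjusted p = 0.0828 and 0.0521), and Rps28 at −0.25 and Rpl30 at −0.20 in ZF against ZL rats (limma adjusted p = 0.0858 and 0.0675).

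Calls were few in genes with and without a TOP start. In ZF against ZL rats, none of the 41 genes with a TOP start and 1 of the 24 without one passed by limma, beside 18.8% of all tested genes, with median log2 fold changes of −0.10 and −0.06. That 1 gene was Rpl38, whose pyrimidine run before the annotated start opens outside the reach of the rule. In ZF-SGLT2i against ZF rats the medians were 0.02 and 0.011, with no call in either, beside 3.15% of all tested genes. In ZF-SGLT2i against ZL rats 1 of the 41 and none of the 24 passed, beside 27.4%, with medians of −0.06 and −0.05. Windows of Rps29, Rpl23a and Rpl30 were not used here.

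Genes that work with the ribosome were taken from lists drawn from textbook knowledge. Among ribosomal proteins with other symbols, Fau, a fusion of a ubiquitin-like protein with a small-subunit protein, fell in ZF against ZL rats from 247 ± 18.5 to 213 ± 9.93 CPM (SD, n = 4; log2 fold change −0.21, limma adjusted p = 0.034). Gnb2l1, which encodes the scaffold RACK1, passed in no comparison. Among 20 translation factors and partners that are TOP mRNAs, 2 (10%) were lower in ZF against ZL rats and none higher, beside the 10.6% of all tested genes that passed as lower. These were Eif3l, a subunit of the initiation factor eIF3 (log2 fold change −0.20, limma adjusted p = 0.0367), and Eif2s3x, the gamma subunit of eIF2 (−0.19, limma adjusted p = 0.0486). None of the 20 passed in ZF-SGLT2i against ZF rats. In ZF-SGLT2i against ZL rats 2 of the 20 passed, both lower, beside 15.0% of all tested genes that passed as lower. They were Eif2s3x (log2 fold change −0.22, limma adjusted p = 0.0192) and Btf3 (−0.23, limma adjusted p = 0.0429). Among the 20, a TOP start was present in 6 of the 15 with a window.

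Regulators of TOP mRNAs were represented by 16 tested genes of the mTORC1 pathway and of mRNA binding, with a median of 0.012 for ZF against ZL rats and of −0.014 for ZF-SGLT2i against ZF rats. Rictor, Deptor, Larp1 and Larp4 have no row in the table. Eif4ebp1, the repressor of cap-dependent initiation that mTORC1 inactivates, was the single gene of the 16 to pass in ZF against ZL rats, where it was higher, and none passed in ZF-SGLT2i against ZF rats, beside 18.8% and 3.15% of all tested genes. It had 5.07 ± 0.139 CPM in ZL, 7.39 ± 0.534 CPM in ZF and 7.29 ± 0.804 CPM for ZF-SGLT2i rats (SD, n = 4), with log2 fold changes of 0.46 in ZF against ZL (limma adjusted p = 0.00618) and −0.020 in ZF-SGLT2i against ZF rats (limma adjusted p = 0.943). In ZF-SGLT2i against ZL rats 3 of the 16 passed (18.8%, beside 27.4% of all tested genes). Eif4ebp1 was higher (log2 fold change 0.44, limma adjusted p = 0.00473), as was Mlst8, a subunit of the mTOR complexes (0.22, limma adjusted p = 0.0209), and Cnbp, which binds TOP mRNAs, was lower (−0.17, limma adjusted p = 0.0496). Myc, which drives ribosome production, had 8.82 ± 1.73, 13.3 ± 3.70 and 10.2 ± 1.95 CPM in ZL, ZF and ZF-SGLT2i rats (SD, n = 4; limma adjusted p = 0.0661 for ZF against ZL rats and 0.397 for the drug in ZF rats).

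Of 50 tested genes of ribosome assembly, 2 (4%, against 10.6% of all tested genes) were lower in ZF against ZL rats and none higher, with a median of −0.07. Nop10, a core protein of the small nucleolar particles that make pseudouridine, fell from 49.0 ± 4.63 to 36.0 ± 3.68 CPM (SD, n = 4; limma adjusted p = 0.00603), and Gnl3, the nucleolar protein nucleostemin, from 24.6 ± 2.05 to 19.5 ± 2.12 CPM (SD, n = 4; limma adjusted p = 0.0284). None of the 50 passed in ZF-SGLT2i against ZF rats. Nucleolin (Ncl) was the nearest, with 212 ± 6.79 CPM in ZF and 234 ± 4.59 CPM in ZF-SGLT2i rats (SD, n = 4; limma adjusted p = 0.134). Of 22 genes of ribosome chaperones and quality control, 4 were lower in ZF against ZL rats and none higher, a share of 18.2% beside the same 10.6%. Among them were Hbs1l (−0.43, limma adjusted p = 0.00227), which frees stalled ribosomes, and Ltn1 (−0.24, limma adjusted p = 0.00522), the ligase that tags stalled nascent chains. In ZF-SGLT2i against ZF rats, Aars, the alanyl-tRNA synthetase, which charges tRNA and is no chaperone, was the single call among the 22 (4.55%, beside 3.15% of all tested genes), with 201 ± 20.8 CPM in ZF and 152 ± 8.22 CPM in ZF-SGLT2i rats (SD, n = 4; limma adjusted p = 0.00827). None of 10 genes of RNA polymerase III and its factors, which make 5S rRNA and tRNA, passed in either comparison. In ZF-SGLT2i against ZL rats, 4 of the 50 assembly genes passed, all lower (8%), as did 6 of the 22 chaperone and quality control genes (27.3%), 5 lower and 1 higher, and 1 of the 10 polymerase III genes, Gtf3c1, which was higher (log2 fold change 0.24, limma adjusted p = 0.0348). Of all tested genes, 27.4% passed there in either direction and 15.0% passed as lower.

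Mitochondrial genes were placed beside the family because they too form large families with short mRNAs. Of 28 short transcripts of the mitochondrial complexes, all 28 were lower in ZF against ZL rats, with a median of −0.41, none passed in ZF-SGLT2i against ZF rats, and 26 were lower in ZF-SGLT2i against ZL rats. The shares of all tested genes that passed as lower were 10.6% and 15.0% in the comparisons with ZL rats. Ndufs6 went from 23.1 ± 1.89 to 14.8 ± 1.29 CPM between ZL and ZF rats (SD, n = 4; limma adjusted p = 0.000874) and Atp5j2 from 126 ± 6.64 to 86.3 ± 8.51 CPM (SD, n = 4; limma adjusted p = 0.00147). Of the 69 mitochondrial ribosomal protein genes tested, a set chosen after the data had been seen, 23 (33.3%) were lower in ZF against ZL rats and none higher, with a median of −0.21. None of them passed in ZF-SGLT2i against ZF rats and 31 (44.9%) were lower in ZF-SGLT2i against ZL rats. The cytosolic family had 3 calls of 80 and a median of −0.10 in ZF against ZL rats.

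**Figure D4:**
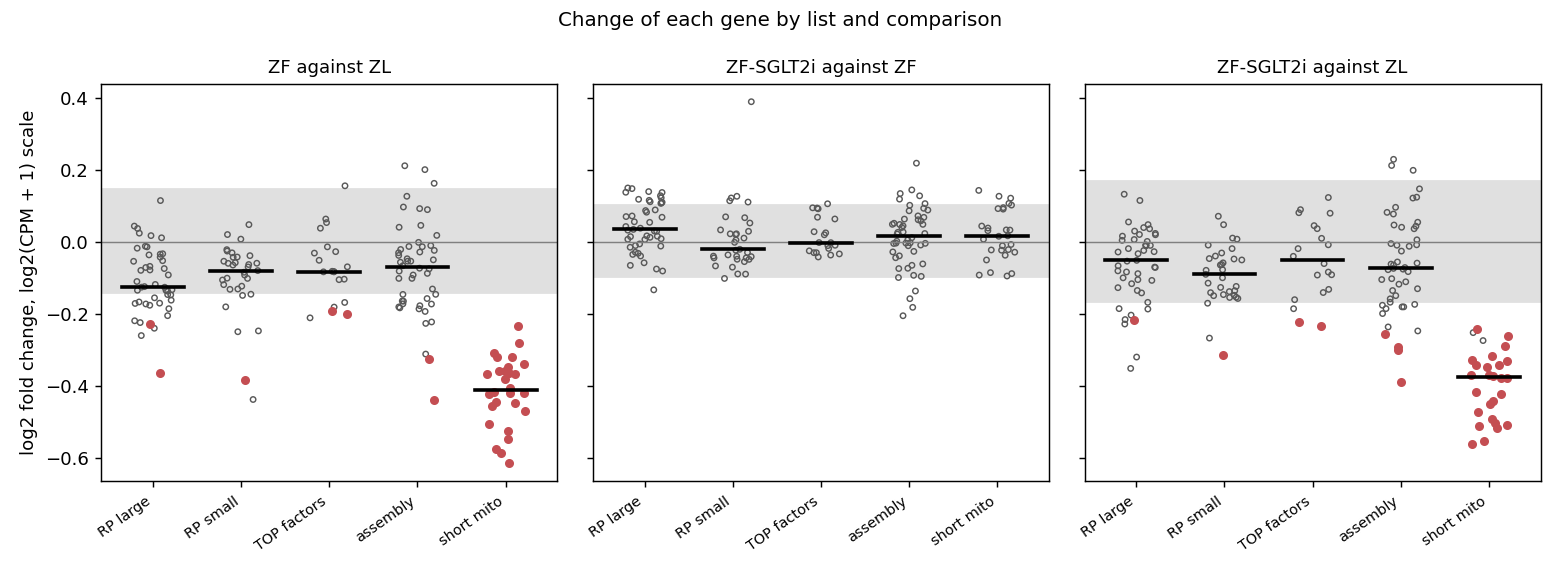
Log2 fold change on the log2(CPM + 1) scale of each gene in the 3 comparisons, for the large-subunit (RP large) and small-subunit (RP small) ribosomal protein genes, TOP translation factors, ribosome assembly genes and short transcripts of mitochondrial complexes. Filled points passed limma at an adjusted p under 0.05, open points did not, black bars are medians, and the grey band holds the middle 50% of all tested genes. Ribosomal protein genes lie mostly inside the band, and the 28 mitochondrial transcripts lie below it in both comparisons with ZL rats.

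Markers of several cell types moved with the groups. The summed proximal tubule markers were at 20899 ± 1796 CPM in ZL, 18314 ± 1889 CPM in ZF and 17651 ± 1491 CPM for ZF-SGLT2i rats (SD, n = 4). Lrp2 alone went from 10736.5 ± 422 CPM in ZL to 7835 ± 1228 CPM in ZF rats (SD, n = 4; limma adjusted p = 0.0731). Of the 8 markers, 4 had a log2 fold change above 0 in ZF against ZL rats and 4 below, and 2 passed as higher, the anion transporter Slc22a6 and the gluconeogenic enzyme Pck1, and none as lower. The 6 markers of injured tubule, led by Spp1, were at 322 ± 20.5, 1048 ± 592 and 768 ± 306 CPM, and 5 of them passed as higher in ZF against ZL rats by limma, as 8.19% of all tested genes did. The 5 collecting duct markers, led by Aqp2, were at 1375 ± 259, 1483 ± 261 and 2097 ± 132 CPM (SD, n = 4 each). The 5 fibroblast markers, led by Pdgfra, were at 493 ± 77.0, 605 ± 143 and 349 ± 28.3 CPM, with Pdgfra alone at 149, 133 and 105 CPM. In ZF against ZL rats 4 of the 5 had a log2 fold change above 0 and 1 below, and Col1a1 passed as higher. In ZF-SGLT2i against ZF rats all 5 were below 0, and Col1a2, Col3a1 and Dcn passed as lower, beside 1.75% of all tested genes. The 5 podocyte markers, led by Podxl, were at 1222 ± 162, 1598 ± 163 and 1644 ± 186 CPM, and 3 of them passed as higher in ZF against ZL rats by limma, beside the same 8.19%. The 5 endothelial markers, led by Kdr, were at 364 ± 57.0, 442 ± 31.5 and 428 ± 57.8 CPM, and none of them passed in that comparison. Inner medulla markers (4 genes, led by Aqp4) were at 95.7 ± 21.6, 101 ± 13.8 and 143 ± 21.1 CPM. In that sum every ZF-SGLT2i rat lay above every ZL and ZF rat. Red blood cell markers (5 genes) were at 515 ± 90.8, 425 ± 76.3 and 593 ± 9.00 CPM, with Slc4a1 alone at 512, 417 and 580 CPM. Slc4a1 is also 1 of the 5 collecting duct markers, so this sum does not measure blood alone. Of the 3 red blood cell markers tested, 2 had a log2 fold change above 0 in ZF against ZL rats and 1 below, and none passed. Proliferation markers (5 genes, led by Mki67) were at 28.5 ± 5.23, 34.6 ± 3.83 and 19.9 ± 6.67 CPM. The part of these markers in the levels of the ribosomal protein genes was not tested. The lowest injured tubule sum among ZF rats, 506 CPM, was in ZF rat 5, and the lowest among ZF-SGLT2i rats, 372 CPM, in rat 6, the rats of these groups with the lowest ribosomal protein sums.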

How the data were processed

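RNA from the renal cortex was depleted of ribosomal RNA, made into directional libraries and sequenced from both ends. The submitters' processing notes name Trimmomatic 0.38, RSEM 1.3.0, Bowtie2, edgeR and the build rn6. The authors deposited 1 table of signal values for 13151 genes in 12 rats, CPM scaled by TMM factors. Dividing a rat's values by its value of 1 read returned whole reads throughout (100%, tolerance 1e-06). Replicates were separate rats, and none repeated the values of another.

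The 3 comparisons were made by limma 3.58.1 under R 4.3.3 (eBayes with trend, two-sided) on log2(CPM + 1), with the 3 groups in 1 fit, for 11633 genes with at least 1 CPM in at least 4 rats. Adding 1 understates the fold change of low genes. Benjamini-Hochberg adjustment covered all tested genes, and calls needed an adjusted p under 0.05. For single genes and, added after the data had been seen, the ratio of the subunits, exact permutation over the 70 ways to divide 8 rats into 4 and 4 was added. The scripts were tested on simulated data. Alternatives were a pseudocount of 0.1, no filter, a mean of at least 10 CPM, median-ratio scaling, quantile normalization, and Rn28s and Rn45s left out before scaling. Others were only the 2 groups compared, a replicate block, array quality weights, and edgeR 4.0.16 and DESeq2 1.42.0 on recovered reads. The remaining ones were ribosomal RNA percent as a term, each rat left out and, added after the data had been seen, reads on genes as a term.

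The members and lists were chosen with earlier results of these data known. Named were 26 genes of known role, the 5 largest rises and falls between ZF and ZL and between ZF-SGLT2i and ZF rats, and the gene with the most reads of each subunit, 36 in all, and up to 3 genes with the smallest p of each other list. A few genes taken in by this rule are not reported here. All 80 symbols are in the GRCr8 gene table, which holds 220 symbols of this form. Gene positions on rn6 were not used here, and the windows printed are those of GRCr8 in RefSeq. Levels were not compared between genes, since no transcript lengths were used.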

Additional observations from a re-analysis of the deposited data

Results flagged for a closer look

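In groups of 4 rats, 1 rat stood apart from the other 3 by Dixon's 95% limit in 6 of 120 groups examined, and chance gives 6 at 1 in 20. Rps2 of ZL rat 3 was at 590 CPM against 712 to 721 CPM in the other ZL rats. Rpl41 of the same rat was at 354 CPM against 419 to 430 CPM, and its Rps27a at 124 CPM against 154 to 159 CPM. ZL rat 3 had the fewest reads of its group, 8886901, and the smallest share of reads on Rn28s, 2.36% against 6.59% to 7.77% in the other ZL rats; the part of either in these levels was not tested. Rps27 of ZL rat 2 was at 78.0 CPM against 106 to 107 CPM. Rpl27 of ZF-SGLT2i rat 6 was at 79.4 CPM against 93.9 to 96.6 CPM. Rpl22l1 of ZF-SGLT2i rat 4 was at 29.6 CPM against 19.95 to 20.4 CPM, the only one of the 6 that stood above its group.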

How the results depend on the processing

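The absence of calls in ZF-SGLT2i against ZF rats held under all 25 alternatives, and Rpl38 passed in ZF against ZL rats under all of them. The other counts are small, so 1 gene moves them. In both comparisons with ZL rats the subunit medians stayed below 0 with any 1 rat left out, but their size moved. In ZF against ZL rats they ran from −0.156 to −0.085 (large) and from −0.135 to −0.037 (small). In ZF-SGLT2i against ZL rats they ran from −0.104 to −0.016 and from −0.148 to −0.035. The medians that turned were, in ZF against ZL rats, the small-subunit median (0.021 with quantile normalization, 0.011 with reads on genes as a term). In ZF-SGLT2i against ZL rats they were the large-subunit median with both settings and the small-subunit median with quantile normalization. In ZF-SGLT2i against ZF rats the small-subunit median (−0.020) turned with the replicate block (0.0027), array weights (0.0099) and the ribosomal RNA term (0.012). It also turned without ZF rat 2 (0.018), ZF rat 4 (0.023) or ZF-SGLT2i rat 6 (0.030). In ZF against ZL rats (2185 genes, 2 large-subunit and 1 small-subunit called), the replicate block gave 807, 1 and 0, and array quality weights 9 and 4 of the subunits. Large-subunit calls were 1 with median-ratio scaling, with Rn28s and Rn45s left out, with only 2 groups and with the ribosomal RNA term. Quantile normalization gave 2 small-subunit calls and a large-subunit median of −0.018. Leaving out a rat gave 1384 to 2453, 1 to 7 and 1 to 5 calls. In ZF-SGLT2i against ZF rats (366 genes called), the counts were 223 with the replicate block, 689 with array weights, 641 with DESeq2, 214 with the ribosomal RNA term and 176 to 569 with a rat left out. In ZF-SGLT2i against ZL rats (3184, 1 and 1), the replicate block gave 1502 genes and the ribosomal RNA term 827. Large-subunit calls were 3 with quantile normalization, all higher (Rpl3, Rpl5 and Rplp1), 7 with array weights, 0 with Rn28s and Rn45s left out, only 2 groups, the replicate block and the ribosomal RNA term, and 0 to 3 with a rat left out. Small-subunit calls were 2 with a mean of at least 10 CPM, only 2 groups, array weights and DESeq2, 0 with quantile normalization, the ribosomal RNA term and reads on genes as a term, and 0 to 5 with a rat left out. With array weights 11.2% of the 80 genes passed as lower in this comparison, beside 18.8% of all tested genes. With quantile normalization 3.75% of the 80 passed, beside 26.5% of all tested genes in either direction. The large-subunit median with reads on genes as a term was 0.038. The direction of single genes turned often. Of the 80 genes, 32 turned with quantile normalization in ZF against ZL rats, 8 in ZF-SGLT2i against ZF and 31 in ZF-SGLT2i against ZL rats, and with reads on genes as a term 30, 2 and 29. In ZF-SGLT2i against ZF rats 19 turned with the ribosomal RNA term, 12 with the replicate block and up to 14 with a rat left out. The same settings turned 2, 16 and up to 11 genes in ZF against ZL rats, and 15, 18 and up to 14 in ZF-SGLT2i against ZL rats. No gene that turned had passed, and none passed after turning. Among the named genes that passed in at least 1 setting of the comparison, those that turned with quantile normalization were Rpl41 between ZF and ZL rats (0.025) and, between ZF-SGLT2i and ZL rats, Rpsa (0.042), Rps27a (0.0090), Rpl41 (0.0048) and Rps2 (0.10). Rplp1 turned with the ribosomal RNA term (−0.026) and without ZL rat 3 (−0.013 to 0.085 over the rats left out), and Rps27a with reads on genes as a term (0.0099). The causes were not tested. The rat numbers do not pair the groups, since the deviations of same-numbered rats correlated from −0.38 to 0.25. With the replicate block Rps29 had a log2 fold change of −0.31 in ZF against ZL rats and did not pass (limma adjusted p = 0.0634). Depth limits mainly Rps4y2, with as few as 35 reads in a rat.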
